A study of Mus musculus with 1 sample.

Results

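The 7 keratin genes Krt7, Krt8, Krt18, Krt19, Krt20, Krt23 and Krt4 were followed in single cells of a mouse gastric organoid library. They were taken as a list of gene symbols, and the rule that finds them uses no measured value, though the list was drawn up with earlier results of these data known. All 7 were found among the 32285 genes of the count table, which holds 53 genes with a Krt symbol. Organoids are epithelial cultures that grow in a gel as small closed structures. The library was labelled as wild type in genotype and as untreated, its source as stomach and its cell type as epithelial. Cultures were harvested 7 days after seeding and dissociated for 30 min at 37 °C in trypsin-EDTA (0.05%). The series text also names organoids called KP and EKP, which were not analysed here. The labels give neither the strain, the age nor the number of mice. There was 1 library, so no difference was tested, and each interval below is a 95% interval that covers counting error only.

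Keratins are the intermediate filament proteins of epithelia. Each filament is built from pairs of 1 type I and 1 type II keratin, so a cell needs a partner of each type. Single-layered epithelia such as the glandular stomach are known for the pair of Krt8 (type II) and Krt18 (type I). Many of them add Krt7 (type II), known from ducts, and Krt19 (type I), an unusually short keratin, and Krt20 (type I) is known from surface cells of the stomach and gut. Krt23 is a type I keratin described in several glandular tissues. Krt4 (type II) is known from moist stratified epithelia such as oesophagus and forestomach, where its partner is Krt13, so of the 7 it fits the description "simple" least.

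The 3 type II genes lay on chromosome 15 of GRCm38, in the order Krt7 (101411043 to 101430313, plus strand), Krt4 (101918535 to 101924735, minus strand) and Krt8 (101996698 to 102004482, minus strand). Krt18 (102028180 to 102032027, plus strand) was the only type I member on that chromosome. The annotated starts of Krt8 and Krt18 were 23.7 kb apart and the genes pointed away from each other. The other type I genes lay on chromosome 11, as Krt20 (99428403 to 99438150), Krt23 (99477974 to 99493137) and Krt19 (100140810 to 100148665), all on the minus strand. All 7 are annotated as protein coding. The counts cover whole genes and do not resolve exons.

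Promoter sequences from RefSeq (GRCm38.p6) were at hand for 5 members, Krt7, Krt8, Krt18, Krt20 and Krt23, and not for Krt19 and Krt4. The promoters of the 3 most abundant of these and of the scarcest are shown, each 300 bases long, from 250 bases before the RefSeq start to 50 bases after it, 5′ to 3′ along the gene. Capitals mark matches on either strand to 1 of 7 motifs: AP-1 (TGANTCA), the GC box (GGGCGG), the CACCC box (CCACCC), the TATA motif (TATAAA), an ETS core (CCGGAA), an E-box (CAGCTG) and a TEAD motif (GGAATG).
Krt18 (chr15:102027966-102028265, plus strand): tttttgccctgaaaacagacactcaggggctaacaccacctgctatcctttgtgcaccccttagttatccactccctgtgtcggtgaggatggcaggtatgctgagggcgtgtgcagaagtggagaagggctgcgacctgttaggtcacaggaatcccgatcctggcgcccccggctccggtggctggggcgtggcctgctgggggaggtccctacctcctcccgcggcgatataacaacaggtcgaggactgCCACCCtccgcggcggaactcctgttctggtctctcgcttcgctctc
Krt8 (chr15:102004293-102004592, minus strand): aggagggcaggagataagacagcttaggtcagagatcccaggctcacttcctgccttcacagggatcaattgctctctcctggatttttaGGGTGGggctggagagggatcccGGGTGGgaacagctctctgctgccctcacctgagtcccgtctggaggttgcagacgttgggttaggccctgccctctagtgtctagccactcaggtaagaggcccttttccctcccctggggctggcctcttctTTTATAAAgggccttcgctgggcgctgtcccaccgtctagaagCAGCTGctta
Krt7 (chr15:101412153-101412452, plus strand): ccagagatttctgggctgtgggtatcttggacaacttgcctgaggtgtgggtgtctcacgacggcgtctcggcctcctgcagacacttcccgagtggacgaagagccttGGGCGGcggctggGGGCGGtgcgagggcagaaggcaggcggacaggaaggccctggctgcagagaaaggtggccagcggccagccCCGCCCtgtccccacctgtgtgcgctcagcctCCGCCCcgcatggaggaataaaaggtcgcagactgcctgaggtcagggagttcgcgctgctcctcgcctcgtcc
Krt20 (chr11:99438104-99438403, minus strand): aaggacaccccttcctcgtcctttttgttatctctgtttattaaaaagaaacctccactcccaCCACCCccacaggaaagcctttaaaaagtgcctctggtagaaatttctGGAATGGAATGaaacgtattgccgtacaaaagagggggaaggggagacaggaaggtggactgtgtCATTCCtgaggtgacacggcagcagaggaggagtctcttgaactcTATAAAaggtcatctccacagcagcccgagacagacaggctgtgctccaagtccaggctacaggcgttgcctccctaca

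Krt18 held 1 CACCC box, a motif found in 31.5% of 32851 promoters in the table. Krt8 held 2 CACCC boxes, an E-box (16.3%) and a TATAAA 1 base before the RefSeq start that overlaps its own match on the other strand. Of all promoters, 13.6% hold the TATA motif. Krt7 held 4 GC boxes, a motif of 35.7% of promoters, and had the highest GC content of the 5, 66.3%. The RefSeq starts of Krt7 and Krt8 lay downstream of the annotated starts, 101411043 and 102004482. The Krt7 sequence thus lay wholly inside the annotated gene. Krt20 held a TATAAA 29 bases before the start, a CACCC box and 3 TEAD motifs, of which 2 overlap by 1 base, and 14.7% of promoters hold at least 1 such motif. Krt23 held no match to any of the 7. No member promoter held the AP-1 motif (7.81% of promoters) or the ETS core (14.9%). The neighbours Krt8 and Krt18 shared the CACCC box alone. A match is a description of these letters only.

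The library held 1991 barcodes, of which 1892 passed a filter of 500 or more genes and no more than 20% mitochondrial UMIs (unique molecular identifiers, each standing for 1 captured transcript). These cells held 20118334 gene UMIs, with a median of 8512.5 per cell (range 890 to 47183). The epithelial genes Epcam and Cldn7 had a UMI in 96.6% and 90.7% of cells, and Cdh1 and Cldn4 of the same list in 52.1% and 44.5%. Markers of mesenchymal, endothelial, enteroendocrine and parietal cells had at most 29 UMIs per gene, and the immune genes Ptprc and Cd3e had 1 UMI each. Cd68, a macrophage gene of the same immune list, had 196 UMIs in 162 cells (8.56%), and its part in the keratin values was not tested. The labels name epithelial cells alone, so no share could be set beside that in a cell type known to lack these keratins, and the part of free RNA in the shares was not tested.

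All 7 keratins were detected, and 5 of them were abundant. The unit of level is CPM, a gene's UMIs scaled to 1000000 gene UMIs of all kept cells together. Libraries of this kind count transcript ends, so a level is not divided by transcript length. Summed, the 7 members held 89158 UMIs, or 4432 CPM (4403 to 4461). A cell had a median of 37 keratin UMIs, and 1 cell of 1892, with 1428 gene UMIs, had none.

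The pair of Krt8 and Krt18 led. Krt18 had 36234 UMIs, or 1801 CPM (1783 to 1819.7), was seen in 99.6% of cells and ranked 111 among all genes by UMIs. Its UMIs per cell had a median of 15, with 3 and 49 at the 5th and 95th percentiles and a maximum of 125. Krt8 had 20414 UMIs, or 1015 CPM (1001 to 1029), was seen in 97.9% of cells and ranked 149, with a median of 8 UMIs per cell, 1 and 28 at those percentiles and a maximum of 143. Krt18 and Krt8 made up 40.6% and 22.9% of the keratin UMIs of the 7 members. The 8 cells without a Krt18 UMI had a median of 3161 gene UMIs, and the 40 cells without a Krt8 UMI had 3776.5, so these were shallow cells.

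Next came Krt7, Krt19 and Krt4, close to each other. Krt7 had 11052 UMIs, 549 CPM (539 to 560). Krt19 had 10777 UMIs, 536 CPM (526 to 546). The ratio of Krt7 to Krt19 was 1.03 (0.999 to 1.05), so these neighbours in the order did not differ beyond counting error. As a median over cells the ratio was 0.875. Their medians per cell were 3 and 4 UMIs, with maxima of 73 and 139. Krt4 followed with 9333 UMIs, 464 CPM (455 to 473), and Krt19 was 1.15 times as high (1.12 to 1.19). Krt19 was found in 91.6% of cells and Krt7 in 87.3%.

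Krt23 and Krt20 were scarce. Krt23 had 1163 UMIs, or 57.8 CPM (54.5 to 61.2), and was seen in 39.0% of cells (36.8% to 41.3%). Krt20 had 185 UMIs, or 9.20 CPM (7.92 to 10.6), in 7.51% of cells (6.36% to 8.79%), with at most 6 UMIs in any cell. Krt4 was 8.02 times Krt23 (7.55 to 8.54), and Krt23 was 6.29 times Krt20 (5.38 to 7.38). For a reading at equal depth, each cell was thinned to 3000 gene UMIs, which kept 1835 cells and left out 57. A UMI was then found in 97.5% of cells for Krt18, 91.0% for Krt8, 71.5% for Krt19, 66.4% for Krt7, 58.5% for Krt4, 15.3% for Krt23 and 2.40% for Krt20. The order of the members by share was the same with and without thinning.

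**Figure D1:**
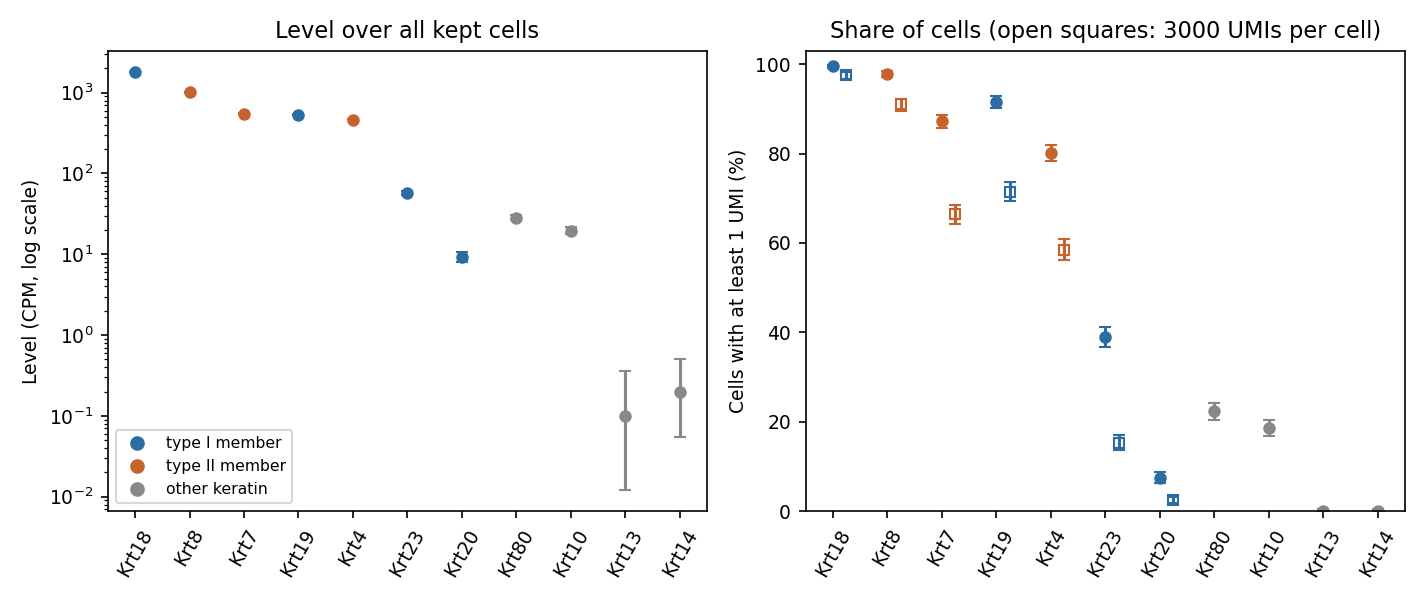
Level (left, CPM on a log axis) and share of cells with at least 1 UMI (right, %) of the 7 members and of 4 other keratins in 1892 cells. Filled circles are all UMIs, open squares are cells thinned to 3000 gene UMIs, and bars are 95% counting intervals. Krt18 is highest at 1801 CPM and Krt20 lowest of the members at 9.20 CPM, and Krt13 and Krt14 lie far below.

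Other keratins were scarce. The other 46 Krt genes held 1090 UMIs together, so the 7 members had 98.8% of all Krt UMIs. Krt80 (573 UMIs, 28.5 CPM, 26.2 to 30.9) and Krt10 (396 UMIs, 19.7 CPM, 17.8 to 21.7) were the only others with at least 50 UMIs. They were seen in 22.3% and 18.6% of cells, and both were higher than Krt20. Krt80 is a type II keratin and Krt10 the type I keratin of the upper epidermis. A further 12 genes had 1 to 33 UMIs and 32 had none.

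Krt4 was present while its partner and the basal markers of stratified epithelium were at or near 0. Krt13, its textbook partner, had 2 UMIs in 2 cells. The basal keratins Krt5 and Krt14 had 0 and 4 UMIs, Krt6a had 0, and Trp63, the master regulator of basal squamous cells, had 3. A count of 0 allows up to 0.159% of cells (3 of 1892) to carry a UMI, which limits cells with a UMI and not cells that express the gene. Of the 7 squamous markers only Lor, a cornified envelope gene, passed 50 UMIs, with 88 UMIs (4.37 CPM). Krt4 had a UMI in 1516 cells.

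Other filament and keratin-binding genes were far below the 5 abundant members, though several were above Krt23 or Krt20. Among 9 other intermediate filament genes, the nuclear lamins Lmna, Lmnb1 and Lmnb2 had 101, 20.4 and 3.58 CPM. Vim, the filament of mesenchymal cells, had 2.88 CPM, and Des, Gfap, Nes, Prph and Synm had at most 19 UMIs each. The 10 genes that link keratins to junctions and to other cytoskeleton ranged from 5.96 CPM for Dst to 72.2 CPM for Jup and 71.5 CPM for Dsp, which anchors keratins at desmosomes. Their median was 27.9 CPM, against 536 CPM for the 7 members and 16.7 CPM for all 10132 genes with at least 50 UMIs. Among 10 epithelial transcription factors, Klf4 (399 CPM) and Klf5 (247 CPM) were the highest. Cdx2, a regulator of intestinal identity, had 381 UMIs (18.9 CPM) and a UMI in 17.3% of cells.

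Type I keratin UMIs outnumbered type II UMIs. Whether the genes were captured alike was not tested. The 4 type I members had 48359 UMIs and the 3 type II members 40799, a ratio of 1.19 (1.17 to 1.20). Within the main pair the excess was larger, with 1.77 Krt18 UMIs for each Krt8 UMI (1.74 to 1.81). The pooled ratio of Krt7 to Krt19 was near 1, as given above, but it was 0.865 in the Ly6m cluster (0.827 to 0.906), 1.28 in the Cxcl2 and Cxcl5 cluster (1.21 to 1.36) and 1.29 in the Psca and Prss22 cluster (1.20 to 1.38), described below. It was 0.851 (0.785 to 0.922) in the shallowest of 4 equal groups of cells by depth and 1.10 (1.05 to 1.14) in the deepest, and the part of depth was not tested.

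The balance was looser in single cells than counting alone would give. In 1523 cells with at least 20 UMIs of the members, the type I share had a median of 54.9%, with 46.4% to 63.0% as the middle range between quartiles and 36.7% to 75.7% between the 5th and 95th percentiles. Its variance was 2.74 times that of binomial counting around a common share. For Krt18 in the Krt8 and Krt18 pair the median share was 64.6% in 1179 cells, and the variance was 2.57 times binomial. For Krt7 in the Krt7 and Krt19 pair the median share was 54.8% in 308 cells, with 28.0% and 80.9% at the 5th and 95th percentiles and a variance of 3.27 times binomial. Krt18 exceeded Krt8 in 1539 cells and Krt8 exceeded Krt18 in 275, with 78 ties. Krt19 exceeded Krt7 in 892 cells and Krt7 exceeded Krt19 in 766, the opposite of the order in the 308 cells with at least 20 UMIs of that pair. Type I exceeded type II in 1200 cells and the reverse held in 599.

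**Figure D2:**
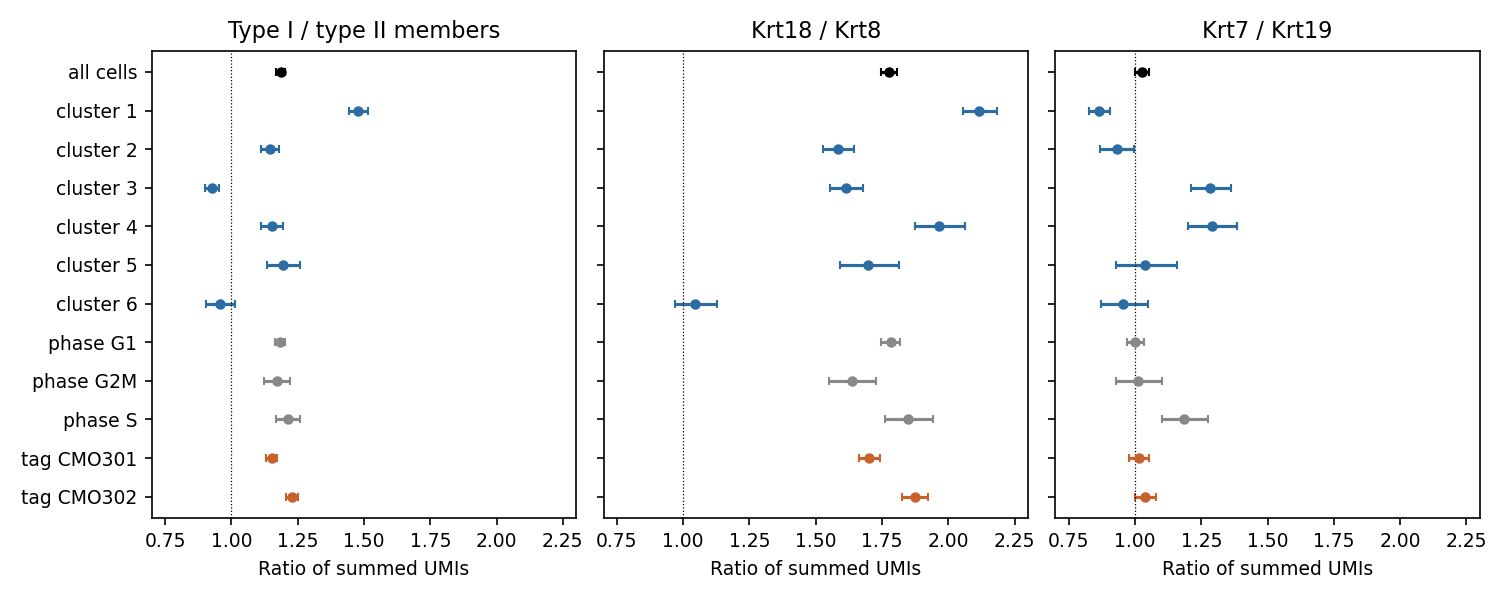
Ratios of summed UMIs between keratin partners, for all 1892 cells (black), 6 clusters (blue), cell cycle phases (grey) and the 2 multiplexing tags (orange), with 95% counting intervals and a dotted line at 1. Krt18 over Krt8 runs from 1.05 in cluster 6 to 2.12 in cluster 1.

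Most cells carried several keratins together. A UMI of exactly 5 members was found in 797 cells (42.1%), of 6 in 576 (30.4%), of all 7 in 56 (2.96%) and of 1 member only in 4. At 3000 UMIs per cell, 4 members was the most frequent number (37.0% of 1835 cells).

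Krt7 and Krt4 varied most from cell to cell among the abundant members. At 3000 UMIs per cell, the variance over the mean was 2.41 for Krt7, 2.06 for Krt4, 1.98 for Krt18, 1.88 for Krt8 and 1.75 for Krt19, where pure counting gives 1. The median over 5017 genes with a thinned mean of at least 0.05 UMIs was 1.04. That measure grows with the level of a gene. The variation beyond counting as a fraction of the mean, a coefficient of variation, was 0.947 for Krt7, 0.901 for Krt4, 0.682 for Krt19, 0.537 for Krt8 and 0.421 for Krt18. On the square of this scale Krt7 lay at percentile 88.3 of the 5017 genes, Krt4 at percentile 86.6 and Krt18 at percentile 44.1. Krt18 was thus the most even and the most abundant member. Krt23 had a variance over mean of 1.08, and Krt20 was below the mean needed for ranking. At 3000 UMIs, 33.6% of cells had no Krt7 UMI while the highest had 21, and 41.5% had no Krt4 UMI while the highest had 15.

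**Figure D3:**
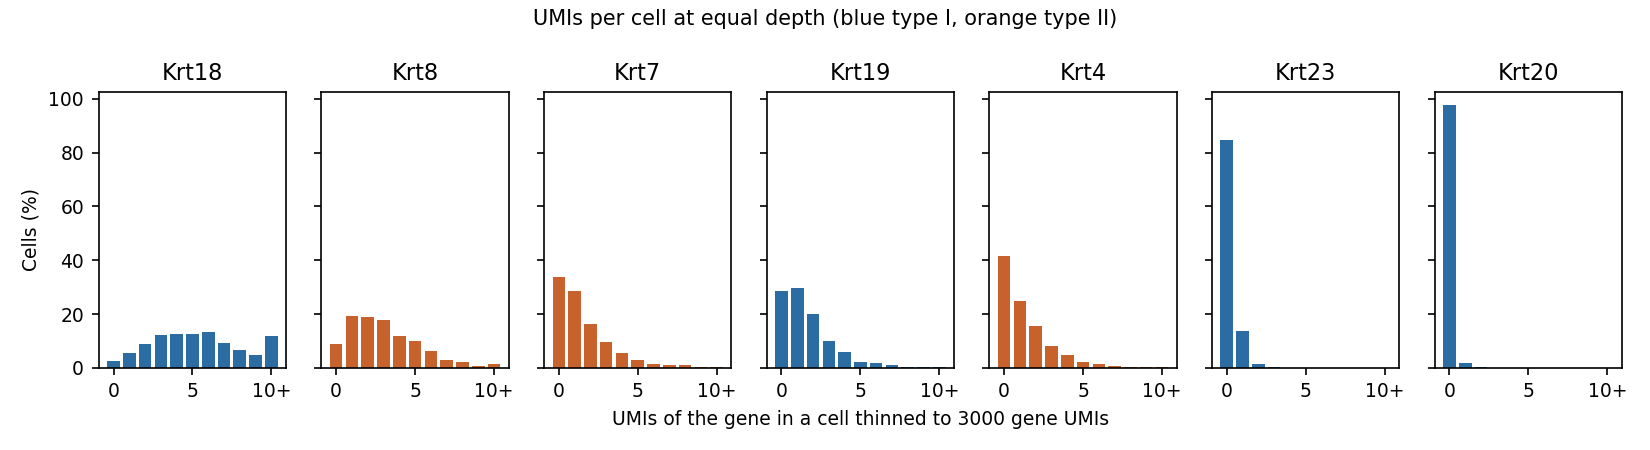
Share of 1835 cells (%) by number of UMIs of each member after thinning every cell to 3000 gene UMIs (blue type I, orange type II, last bar 10 or more). Krt18 spreads around a peak at 6 UMIs, Krt7 and Krt4 are highest at 0 with long tails, and Krt23 and Krt20 are at 0 in 84.7% and 97.6% of cells.

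To place this variation, cells were clustered on other genes, with every Krt gene left out. The clustering gave 6 clusters of 682, 495, 286, 243, 125 and 61 cells. No cluster was given a cell type name. They are called here by their leading genes, as the Ly6m cluster (1), the Aox3 and Scgb3a1 cluster (2), the Cxcl2 and Cxcl5 cluster (3), the Psca and Prss22 cluster (4), the Knl1 and Aspm cluster (5), with 92.8% of cells called S or G2/M, and the Cyba and Reg3g cluster (6), with 63.9% so called. In clusters 1 to 4 the share was 14.3% to 20.2%. Median depth ran from 7291 UMIs in cluster 4 to 14450 in cluster 6. All members were present in every cluster.

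The count of differences past 2-fold was small and depended on the clustering. At 2-fold or more against all other cells, 1 of 42 combinations of member and cluster was past the threshold, Krt20 in the Aox3 and Scgb3a1 cluster. It was at 4.67 CPM there (2.93 to 7.07), 0.441 times other cells (0.269 to 0.691), on 22 UMIs, and 4.05% of the 10132 genes tested were 2-fold or more lower in that cluster. After thinning the ratio was 0.509 (0.207 to 1.09), on 8 UMIs, and it was 0.613 (0.335 to 1.05) in CMO301 cells and 0.253 (0.0900 to 0.575) in CMO302 cells, so the call was lost in both of the first cases. Over all UMIs no member was 2-fold higher in any cluster, where 1.29%, 0.760%, 1.79%, 0.622%, 4.90% and 10.9% of genes were so from cluster 1 to cluster 6. In the lower direction, no member passed in clusters 1, 3, 4, 5 and 6, where 6.33%, 2.08%, 9.35%, 3.25% and 10.1% of genes did. Over the 6 clusters and both directions, 9.23% of all gene and cluster combinations were past 2-fold and 23.9% past 1.5-fold, against 1 and 12 of 42 for the members. After thinning, Krt4 in the Cxcl2 and Cxcl5 cluster passed 2-fold, at 2.14 times (1.96 to 2.34). Under other clusterings a Krt4-poor cluster also passed 2-fold, with Krt4 at 0.340 times other cells at resolution 1.0, 0.341 without called doublets, 0.488 with 3000 variable genes and 0.355 with another seed, but not at resolution 0.3. With 3000 variable genes a Krt4-rich cluster passed as well, at 2.004 times. The members gave 0 of 21 combinations past 2-fold at resolution 0.3, where 7.29% of all gene and cluster combinations were, and 5 of 84 at resolution 1.0, where 12.2% were. They gave 3 of 49 without called doublets, with 3000 variable genes and with another seed, where 9.08%, 10.1% and 9.41% were. Values at the lower threshold of 1.5-fold follow.

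Among the 5 abundant members Krt4 had the widest range over clusters. From cluster 1 to cluster 6 its levels were 318, 422, 774, 649, 374 and 271 CPM. The interval was 747 to 803 in cluster 3, 614 to 685 in cluster 4 and 240 to 305 in cluster 6, so the 3 did not overlap. The highest level, in the Cxcl2 and Cxcl5 cluster, was 2.86 times the lowest (2.52 to 3.25). This value moved with the clustering, to 1.87 at resolution 0.3, 4.72 at resolution 1.0 and 4.39 with another seed. That cluster stood 1.98 times above other cells (1.89 to 2.06), and 84.3% of its cells lay above the median of other cells. It had 1 member at 1.5-fold or higher, against 12.1% of genes, and 0 members lower, against 4.83%. In the Ly6m cluster Krt4 was 0.586 times other cells (0.559 to 0.615), the only member 1.5-fold lower there, where 16.2% of genes were, and Krt20 was higher at 1.52 times (1.12 to 2.05), where 5.86% were. After thinning the Krt20 ratio was 1.14 (0.619 to 2.06), so that call was lost. Among cells with CMO301 and with CMO302 as the highest multiplexing tag, the Krt4 ratio of the Cxcl2 and Cxcl5 cluster was 2.04 and 1.92.

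Krt7 and Krt19 were both lowest in the Aox3 and Scgb3a1 cluster. Krt7 was at 344 CPM there (327 to 361), 0.562 times other cells (0.533 to 0.592), and Krt19 at 369 CPM (352 to 387), 0.630 times (0.598 to 0.663). With Krt20 these were 3 members 1.5-fold lower, against 10.6% of genes, and 0 higher, against 3.23%. Krt8 was at 0.970 times other cells in that cluster (0.938 to 1.002), and at 0.930 times after thinning (0.875 to 0.989). In clusters 1, 3, 4, 5 and 6, Krt7 was at 505, 669.6, 871, 439 and 879 CPM, and Krt19 at 583, 522, 676, 424 and 920.02 CPM.

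The Psca and Prss22 cluster had the highest keratin level as a share of UMIs. Its cells had the lowest median depth of the clusters, 7291 UMIs, so this is not a number of keratin UMIs per cell. The 7 members summed to 5903 CPM there (5799 to 6009), 1.38 times other cells (1.36 to 1.41), and 1.57 times the lowest cluster, the Aox3 and Scgb3a1 cluster at 3766 CPM (3711 to 3822). Each of the 5 abundant members was higher there with an interval above 1, from 1.24 times for Krt8 (1.18 to 1.29) to 1.70 times for Krt7 (1.61 to 1.79). Krt18 reached its highest level, 2407 CPM (2341 to 2475). Krt7 and Krt20 were 1.5-fold or higher, against 2.73% of genes, and 0 were lower, against 24.4%. Krt20 was at 14.1 CPM there (9.45 to 20.3), on 29 UMIs, and after thinning its ratio was 1.20 (0.489 to 2.58), so that call was lost.

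In the Cyba and Reg3g cluster the members differed in direction. Krt19 was at 920.02 CPM (862 to 981), 1.79 times other cells (1.67 to 1.91), Krt7 at 879 CPM (823 to 939), 1.65 times (1.54 to 1.77), and Krt8 at 1319 CPM (1249 to 1391), 1.32 times (1.25 to 1.40). Krt18 was lowest of all clusters, 1379 CPM (1308 to 1453), 0.756 times (0.716 to 0.798), and Krt4 was 0.572 times (0.505 to 0.645). Krt7 and Krt19 were 1.5-fold higher, against 23.2% of genes, and Krt4 and Krt20 lower, against 18.8%. The Krt20 value rests on 6 UMIs, and its interval (0.229 to 1.41) holds 1. Krt18 over Krt8 was 1.05 here (0.969 to 1.13), against 1.58 to 2.12 in the other clusters. The pit cell gene Tff1 and the chief cell gene Pgc were among its 10 leading genes. Each was the only gene of its marker list there. Pgc had 71 UMIs in the whole library, and the chief cell genes Bhlha15, Cblif and Lipf had 7, 0 and 0. The part of Tff1 and Pgc in the keratin values was not tested. This cluster held 61 cells, and the cell with the most UMIs, 47183, was among them. That cell alone had 139 Krt19 UMIs, 143 Krt8 UMIs and 73 Krt7 UMIs, but 1 Krt4 UMI. Without it the ratios were 1.59 for Krt19, 1.59 for Krt7 and 1.24 for Krt8. With each cell thinned to 3000 UMIs, so that cells weigh alike, they were 1.65 for Krt19 (1.39 to 1.93), 1.42 for Krt8 (1.25 to 1.61) and 1.19 for Krt7 (0.974 to 1.43), so the interval of Krt7 then held 1.

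In the Knl1 and Aspm cluster all 5 abundant members were somewhat lower than in other cells, from 0.778 times for Krt19 (0.717 to 0.842) to 0.924 times for Krt8 (0.876 to 0.975). After thinning, the intervals of Krt8 (0.983, 0.881 to 1.09) and Krt7 (0.857, 0.727 to 1.004) held 1. No member was 1.5-fold higher, against 13.4% of genes, or lower, against 8.20%. In cells called G2/M the sum was also lower, with the 7 members together at 3854 CPM (3773 to 3936) against 4473 CPM in G1 (4439 to 4506) and 4713 in S (4626 to 4801). Krt23 was at 67.7 CPM in G2/M (57.4 to 79.3) and 56.2 in G1 (52.6 to 60.1), and these intervals overlapped. Among phases Krt4 was highest in G1, at 488 CPM (477 to 499), and Krt7 in S, at 674 CPM (641 to 708).

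**Figure D4:**
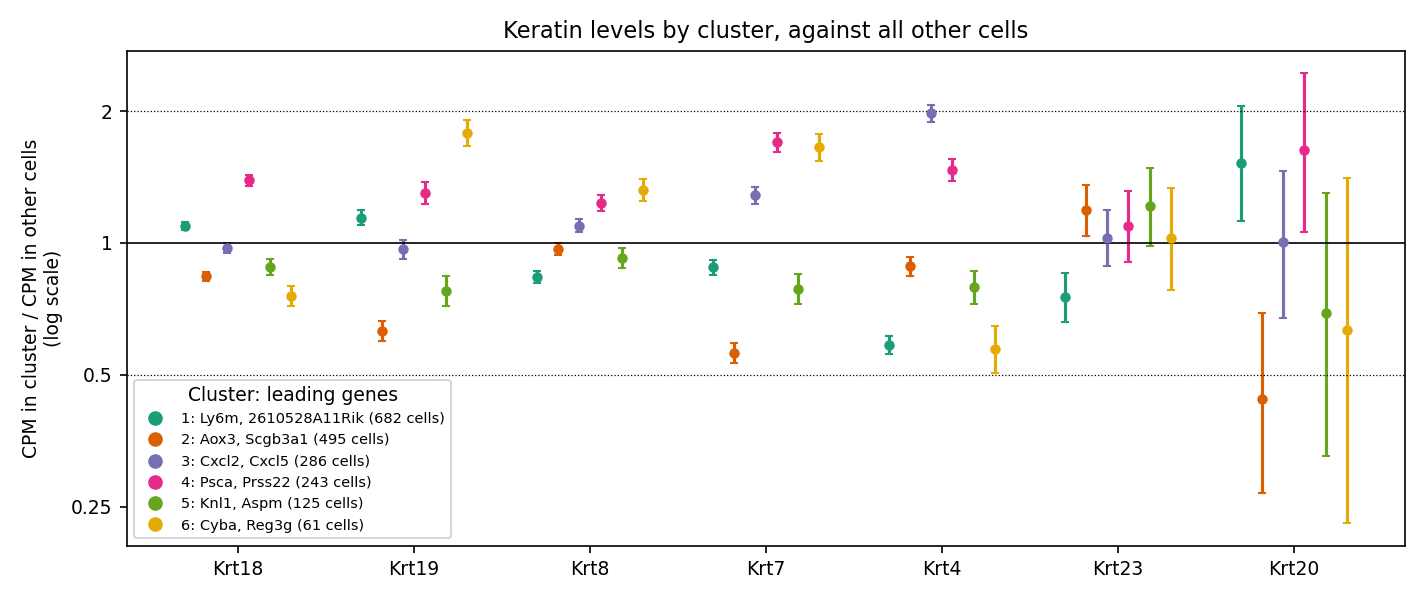
CPM of each member in a cluster divided by its CPM in all other cells (log axis), with 95% counting intervals, a line at 1 and dotted lines at 2-fold. Krt4 spans the widest range of the abundant members, from 0.572 in cluster 6 to 1.98 in cluster 3, and the intervals of Krt23 and Krt20 are wide.

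The ratio of type I to type II also differed between clusters. It was 1.48 in the Ly6m cluster (1.44 to 1.51), which was poor in Krt4, and 0.928 in the Cxcl2 and Cxcl5 cluster (0.901 to 0.955), which was rich in it. In clusters 2, 4 and 5 it was 1.14, 1.15 and 1.20. In cluster 6, where Krt4 was lowest, it was 0.958 (0.905 to 1.01), so the ratio did not go with Krt4 in every cluster. Across G1, G2/M and S cells it was 1.18, 1.17 and 1.21, and these intervals overlapped.

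Genes that bind or regulate keratins were then read in the same clusters. Of the 10 linkers, Evpl (2.10 times) and Dst (2.68 times) were 2-fold or more higher in the Cxcl2 and Cxcl5 cluster, where 1.79% of genes were. Dst was lower in the Ly6m cluster (0.397 times), where 6.33% of genes were 2-fold lower, and Ppl in the Cyba and Reg3g cluster (0.413 times), where 10.1% were. Of the 8 transcription factors with at least 50 UMIs, Ehf was at 0.485 times in the Ly6m cluster, again beside 6.33% of genes. Gata6, with 66 UMIs in all, passed the 50-UMI filter only through the Cyba and Reg3g cluster, so its values by cluster are not compared.

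Across single cells the 5 abundant keratins tended to go together, weakly. Over 1835 cells at 3000 UMIs, Spearman rho was above 0 in all 10 pairs, from 0.09 for Krt4 and Krt19 to 0.23 for Krt7 and Krt18. It was 0.22 for Krt8 and Krt18. Counting noise lowers such values, so each covariance was also divided by the variance beyond counting. This gave 0.60 for Krt7 and Krt19, 0.55 for Krt7 and Krt18, 0.54 for Krt8 and Krt18 and 0.23 for Krt4 and Krt19. The 6 pairs of a type I with a type II gene had a median of 0.50, and the 4 pairs within a type 0.33. The lowest corrected values were also between types, for Krt4 with Krt19 (0.23) and with Krt18 (0.26). Uncorrected rho did not set the pairs apart, at 0.09 to 0.23 between types and 0.12 to 0.22 within a type. In the cells of each tag alone, the corrected values were 0.61 and 0.62 for Krt7 and Krt19. They were 0.61 and 0.47 for Krt8 and Krt18. These cells share 1 library, and the values describe it. For Krt23 rho ran from -0.02 to 0.02 against the 5 abundant members.

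**Figure D5:**
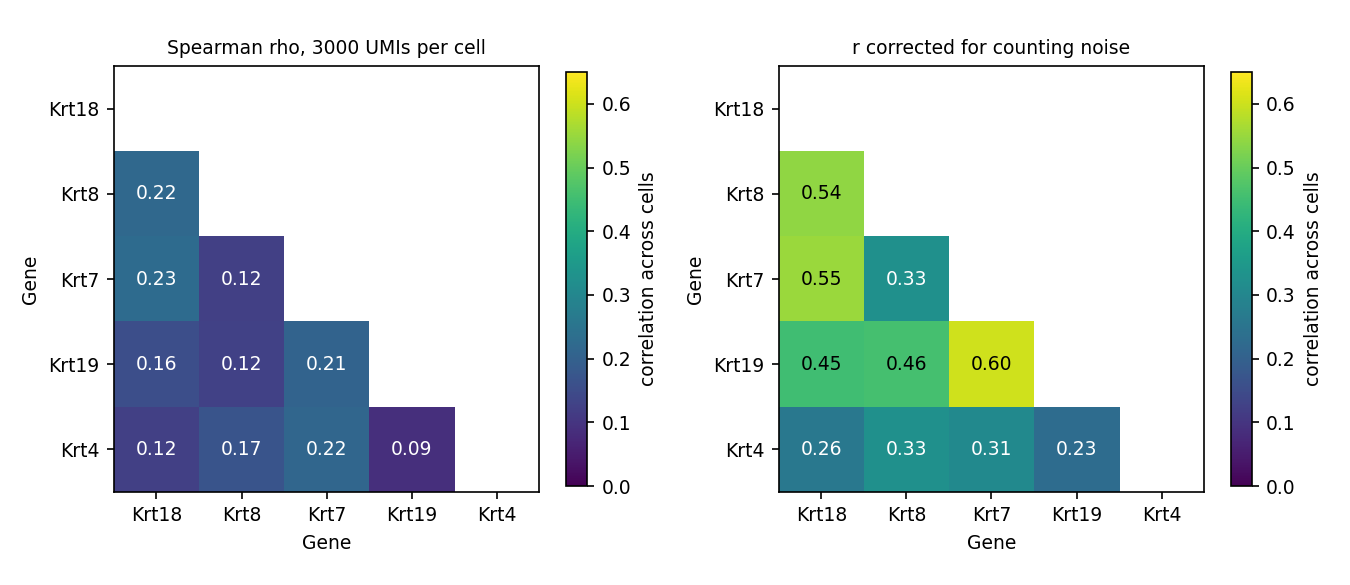
Correlation across 1835 cells thinned to 3000 gene UMIs, for the 10 pairs of the 5 abundant members, as Spearman rho (left) and as r corrected for counting noise (right). The right panel is highest for Krt7 and Krt19 (0.60) and lowest for Krt4 and Krt19 (0.23).

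Read by content, the same pattern shows in levels. Cells with 0, with 1 to 2 and with 3 or more thinned UMIs of Krt4 numbered 761, 744 and 330. Krt7 was at 414 CPM (388 to 442), 548 (518 to 580) and 720.2 (668 to 775) in them. Krt8 was at 896, 1055 and 1225 CPM. Krt23 was at 54.8, 59.6 and 57.6 CPM, with overlapping intervals. Median original depth was 8079, 8883 and 10019.5 UMIs, and its part in the Krt4 classes was not tested. By Krt7 content (616, 821 and 398 cells), Krt19 was at 419 CPM (390 to 449), 503 (475 to 531) and 787 (738 to 839).

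Cells with a thinned Krt20 UMI, 44 in number, had higher Krt8, Krt7, Krt19 and Krt4 than the rest. Krt8 was at 1462 CPM in them (1263 to 1684) and 1009 in the rest (982 to 1036), Krt7 at 735 (596 to 896) and 518 (499 to 538), and Krt19 at 773 (630.1 to 938) and 530.4 (511 to 550.3). Krt18 was at 2114 CPM (1873 to 2377) and 1849 (1812 to 1885), with intervals that overlapped. Krt4 was at 667 CPM (535 to 821) and 431 (413 to 449), and Krt23 at 114 CPM (63.6 to 187) and 55.8 (49.7 to 62.5). Their median original depth was 7766 UMIs, against 8733 in the rest. Over all UMIs, the 142 cells with Krt20 were deeper (median 12050.5 UMIs against 8257), and their Krt7 and Krt19 levels were both 1.40 times those of the rest. Krt8 was then 1.22 times, Krt4 1.21 times and Krt18 1.10 times (1.07 to 1.14). Krt23 was 1.07 times (0.884 to 1.29), so the Krt23 difference of the thinned cells was not seen over all UMIs.

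For each member with a UMI in at least 10% of cells, the genes most alike across cells were ranked by rho among 2845 other genes. Krt8 was most like Krt18 (0.22), then Fosb (0.21), Atf3 (0.20), Hes1 (0.19) and Hbegf (0.18). Fosb and Atf3 are early response transcription factors. Krt18 was most like S100a6 (0.25), Nupr1 (0.24), Krt7 (0.23), Krt8 (0.22) and Ly6c1 (0.21). Krt7 was most like S100a6 (0.38), a calcium-binding protein gene, then Ly6a (0.28), Ly6c1 (0.25), Krt18 (0.23) and Anxa2 (0.22). Krt19 was led by S100a6 (0.26), Krt7 (0.21), Lgals3 (0.17), Krt18 (0.16) and Anxa2 (0.15).

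For Krt4 the most alike genes were Ccnd1 (0.29), the G1 cyclin D1, Ly6a (0.26), Prxl2a (0.26), Actb (0.25) and Tmsb4x (0.24), and its best keratin, Krt7 (0.22), came at rank 12. Read from the other side, Krt4 stood at rank 6 for Krt7 and rank 7 for Krt8, and Ly6a was at rank 2 for both Krt4 and Krt7. For Krt23 no gene passed 0.09, led by Tmsb4x, Anxa1 and Clu, so no pattern could be read for it.

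Depth, tag and cell quality were set beside these results. The sum of the members was at 4338, 4450.3, 4385 and 4471 CPM in 4 equal groups of cells from the shallowest to the deepest. Krt4 was at 366 CPM in the shallowest group (341 to 393) and 511 in the deepest (497 to 525), and its thinned UMIs had a rho of 0.15 with depth. Krt7, Krt18 and Krt19 had rho of -0.18, -0.19 and -0.15 with the mitochondrial share of a cell. The multiplexing tags CMO301 and CMO302 were the highest tag in 1062 and 830 cells, and the labels do not say what they mark. The sum was at 4425 CPM (4386 to 4465) in cells of the first and 4439.6 (4396 to 4483) in cells of the second. Krt8 was 1.07 times as high in the first (1.04 to 1.10) and Krt18 0.970 times, with an upper bound of 0.990. Both differences are beyond counting error. The highest over the lowest cluster level was 1.47 for Krt8 and 1.75 for Krt18. Some clusters differed from other cells by no more than the tags, such as cluster 2 for Krt8 (0.970) and cluster 3 for Krt18 (0.973). The annotation also holds a processed pseudogene, Krt8-ps, and how shared reads were counted was not given in the sources used here.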

How the data were processed

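The wild type library came from a 10x 3' v2 kit, per the labels' protocols, and was read on a NovaSeq, per the series text. The authors deposited counts of UMIs per feature and barcode, not normalized. Per the file headers the table is output of Cell Ranger 6.1.2. The genome was GRCm38 (mm10), per the submitters' processing notes. The annotation used for counting was not given in the sources used here. The 12 multiplexing tags (21.4% of UMIs) were kept out of library sizes.

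From the deposited counts, CPM were computed over summed cells, with exact Poisson intervals for CPM, Clopper-Pearson intervals for shares and conditional binomial intervals for ratios. UMIs per cell were thinned by sampling without replacement. Clusters used scanpy 1.11.5 on 2000 variable genes (no Krt, cell cycle, sex-linked or mitochondrial genes), 30 principal components, 15 neighbours and Leiden resolution 0.6. Cell cycle phase came from scanpy's gene scores. The 12 doublets called by Scrublet (0.634%) were kept, and their removal was an alternative. Floors are 3 counts. Genes were annotated from GENCODE M21.

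The members and the gene lists were chosen with earlier results of these data known. Named were all members, other Krt genes of at least 50 UMIs, the listed pathway genes, the 5 most alike genes per member and leading genes of clusters. Steps were tested on simulated data. Alternatives were other cell filters, doublets, pooling, depth, tags and clusterings.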

Additional observations from a re-analysis of the deposited data

Results flagged for a closer look

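Barcodes outside the cell filter carried keratin transcripts. In the 99 barcodes with under 500 genes or over 20% mitochondrial UMIs, which enter only the recomputation without a cell filter, the 7 members summed to 3314 CPM (2995 to 3659), on 393 of 118582 gene UMIs, against 4432 CPM in kept cells. That is 0.748 times the kept level (0.676 to 0.826). The members did not differ alike, with Krt18 at 0.613 times (0.513 to 0.728), Krt7 at 0.599 times (0.425 to 0.819), Krt8 at 0.964 times (0.796 to 1.16) and Krt19 at 0.960 times (0.734 to 1.23). These barcodes had a median of 901 gene UMIs and a median mitochondrial share of 25.6%. With 1 library there was no group of samples in which to look for a sample that stands apart.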

How the results depend on the processing

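Each of 36 results was recomputed, giving 222 values, and among these no ratio whose interval excluded 1 crossed to its other side. Ratios of a cluster to other cells were recomputed only for chosen members and clusters. Among those left out, Krt18 in the Cxcl2 and Cxcl5 cluster, 0.973 times (0.947 to 0.999), was 1.015 times (0.978 to 1.05) in CMO301 cells. Of the main results 30 values stayed within the counting interval (within 1.5 times for counts, correlations and variances) and 18 moved. With ribosomal and mitochondrial UMIs left out of the total, the summed level was 7285 CPM, as a smaller total must give. The ratio of type I to type II was 1.15 in CMO301 cells, 1.23 in CMO302 cells, 1.24 as a median over cells and 1.24 after thinning. Krt8 over Krt18 was 0.563 and became 0.588 and 0.534 in cells of these tags, 0.548 without the smallest cluster, 0.542 as a median over cells and 0.550 after thinning. Krt7 over Krt19, 1.03 with an interval that holds 1, was below 1 as a median over cells (0.875) and after thinning (0.976). The number of member and cluster combinations past 2-fold, 1 here, was 0 at resolution 0.3 (3 clusters), 5 at resolution 1.0 (12 clusters), 3 without doublets, 3 with 3000 variable genes, 3 with seed 1, and 12 at 1.5-fold. All of these calls at 2-fold were Krt4 or Krt20. The highest over the lowest cluster level ran from 1.87 to 4.72 for Krt4 and from 1.27 to 2.97 for Krt7 over these clusterings. These values of highest over lowest level were chosen after seeing the data. So were the values by tag, without the deepest cell and after thinning for single clusters. The cause of the other shifts was not tested. No paired analysis was possible because 1 library has no partner. Depth limits Krt20, with 185 UMIs in all.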
